A study of Mus musculus with 6 samples.

Results

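The transcripts of the 5 NF-kB subunit genes (*Nfkb1*, *Nfkb2*, *Rel*, *Rela* and *Relb*) and of 5 inhibitors or feedback regulators of NF-kB (*Nfkbia*, *Nfkbie*, *Nfkbiz*, *Tnfaip3* and *Bcl3*) were followed in the mouse mammary carcinoma line 4T-1, a model of triple-negative breast cancer. These 10 genes were taken by name from the 40205 genes of the count table. RNA-seq was performed on Y641-F cells, which are 4T-1 cells transduced with a retrovirus that carries EZH2 with the Y641-F change and are labelled as Y641 mutated, and on Control cells, which are 4T-1 cells transduced with the MSCV vector and are labelled as WT. Each group had 3 libraries from separate batches of stable cells of 1 line, and no treatment or time point is named. EZH2 is the H3K27 methyltransferase of Polycomb repressive complex PRC2, and Y641-F makes it hyperactive. The methods name puromycin selection for both lines in one place and hygromycin for Y641-F cells in another, so the selection drug and EZH2 Y641-F cannot be told apart.

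NF-kB proteins are dimers of Rel-homology subunits that inhibitors of the IkB family hold in the cytoplasm. Signals from receptors of tumor necrosis factor, interleukin-1 and microbial products activate the IkB kinase (IKK), which marks IkB for destruction, and the freed dimers enter the nucleus. Their target genes include genes for the inhibitors themselves, which closes a feedback loop. In a slower, noncanonical branch the kinase NIK drives processing of the *Nfkb2* product, and RelB dimers enter the nucleus. In the mammary gland NF-kB is known for its part in RANK signaling during pregnancy. Much of the control acts on the proteins and their location, which RNA-seq does not measure.

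Promoter windows from RefSeq, 250 bases before to 50 bases after an annotated start, were found for 7 of the 10 genes, in 10 windows. *Nfkb1*, *Relb* and *Nfkbiz* had no window in the table. The table is of build GRCm38.p6, and each window was then located by an exact and single match in the chromosome of GRCm39. The windows below belong to a gene that rose (*Tnfaip3*), a gene that fell (*Nfkbie*), genes that did not pass the test (*Nfkbia* and *Nfkb2*) and a gene that rose but had no match (*Rela*). Capitals mark matches to GGNNNTTCC on either strand, a core of the sites that NF-kB dimers bind, and overlapping matches run together. The motif was chosen with these sequences in view.
Tnfaip3 (chr10:18891109-18891408, minus strand): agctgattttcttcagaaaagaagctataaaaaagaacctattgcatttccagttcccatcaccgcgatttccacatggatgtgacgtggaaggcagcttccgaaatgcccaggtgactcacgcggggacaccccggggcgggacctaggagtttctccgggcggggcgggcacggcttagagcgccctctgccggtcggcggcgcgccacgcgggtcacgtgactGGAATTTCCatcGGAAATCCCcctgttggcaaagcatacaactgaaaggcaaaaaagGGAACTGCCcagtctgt
Nfkbia (chr12:55539383-55539682, minus strand): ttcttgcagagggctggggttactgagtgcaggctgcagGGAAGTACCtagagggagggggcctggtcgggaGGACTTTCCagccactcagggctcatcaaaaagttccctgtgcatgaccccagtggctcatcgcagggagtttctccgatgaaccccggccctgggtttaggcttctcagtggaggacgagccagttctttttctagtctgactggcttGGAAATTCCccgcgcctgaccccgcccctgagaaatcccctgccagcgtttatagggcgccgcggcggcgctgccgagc
Nfkbie (chr17:45866376-45866675, plus strand): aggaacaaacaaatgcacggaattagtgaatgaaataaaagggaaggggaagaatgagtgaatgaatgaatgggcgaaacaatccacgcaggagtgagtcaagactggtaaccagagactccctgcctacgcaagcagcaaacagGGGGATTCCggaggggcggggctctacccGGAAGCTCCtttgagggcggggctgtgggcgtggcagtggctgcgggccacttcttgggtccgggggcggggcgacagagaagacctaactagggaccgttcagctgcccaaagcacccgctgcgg
Nfkb2, upstream window (chr19:46292926-46293225, plus strand): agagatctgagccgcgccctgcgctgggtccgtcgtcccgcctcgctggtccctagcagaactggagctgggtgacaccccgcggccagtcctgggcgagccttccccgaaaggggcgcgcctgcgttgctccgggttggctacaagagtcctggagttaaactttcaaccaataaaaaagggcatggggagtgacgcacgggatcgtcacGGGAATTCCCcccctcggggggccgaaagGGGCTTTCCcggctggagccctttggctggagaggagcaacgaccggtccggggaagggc
Rela (chr19:5687319-5687618, plus strand): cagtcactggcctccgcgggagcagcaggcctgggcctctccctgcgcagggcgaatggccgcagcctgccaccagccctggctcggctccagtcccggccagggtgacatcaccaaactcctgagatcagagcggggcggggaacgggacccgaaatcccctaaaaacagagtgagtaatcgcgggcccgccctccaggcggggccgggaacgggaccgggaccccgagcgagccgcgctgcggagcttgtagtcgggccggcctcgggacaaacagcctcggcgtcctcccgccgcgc

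GGNNNTTCC was present in at least 1 window of 6 of the 7 genes matched, while 18.5% of all 32851 promoter windows held it. The longer kappaB consensus decamer, which overlaps it, was also in 6 of the 7, beside 4.5% of all windows. In both counts the gene without a match was *Rela*. Counted from the annotated start as 0, matches in *Tnfaip3* began at -24 and -12, and a match in *Nfkbia* began at -29. The GC box GGGCGG, the core of SP1 sites, was in a window of all 7 genes and in 35.7% of all windows. The 10 windows were rich in CpG, with a median observed to expected ratio of 0.73, beside 0.38 over all windows. The counts of genes take a match in any of up to 3 windows of a gene, while the percentages are per window, so their units differ. A match is a description of letters, and binding was not measured.

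Of the 10 genes, 4 rose and 1 fell in Y641-F cells, and all changes were small. *Tnfaip3*, *Relb*, *Nfkbiz* and *Rela* rose by 1.34-, 1.27-, 1.27- and 1.20-fold, while *Nfkbie* had a fold of 0.823. *Nfkb1*, *Nfkb2*, *Rel*, *Nfkbia* and *Bcl3* did not pass the test. A gene was called at an adjusted p under 0.05 (edgeR quasi-likelihood, Benjamini-Hochberg over all 21043 genes tested). All 10 genes passed the filter on low counts. The 5 calls (50%) stand beside 31.6% of all genes tested, the 4 higher calls beside 15.6% and the 1 lower call beside 16.0%. More reads make smaller changes detectable, and all 10 genes were well covered. Among the 10770 genes whose mean count reached that of *Bcl3*, the lowest of the 10, 47.2% were called, 25.6% higher and 21.7% lower. The share of the 10 genes that was called was therefore close to that of genes with as many reads. Their median absolute log2 fold change was 0.26, beside 0.29 for those 10770 genes and 0.38 for all genes tested. An absolute log2 fold change of 0.2 or more was seen in 7 of the 10, beside 71.0% of all genes tested. At the thresholds of the study, a log2 fold change of 1 or more in either direction with an unadjusted p up to 0.05, none of the 10 was called by edgeR, DESeq2 or limma-voom, beside 9.16% of all genes with edgeR. At an unadjusted p under 0.05 alone, each of these tools called 5. In bulk RNA, fewer cells with a transcript and less of it per cell cannot be told apart.

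**Figure D1:**
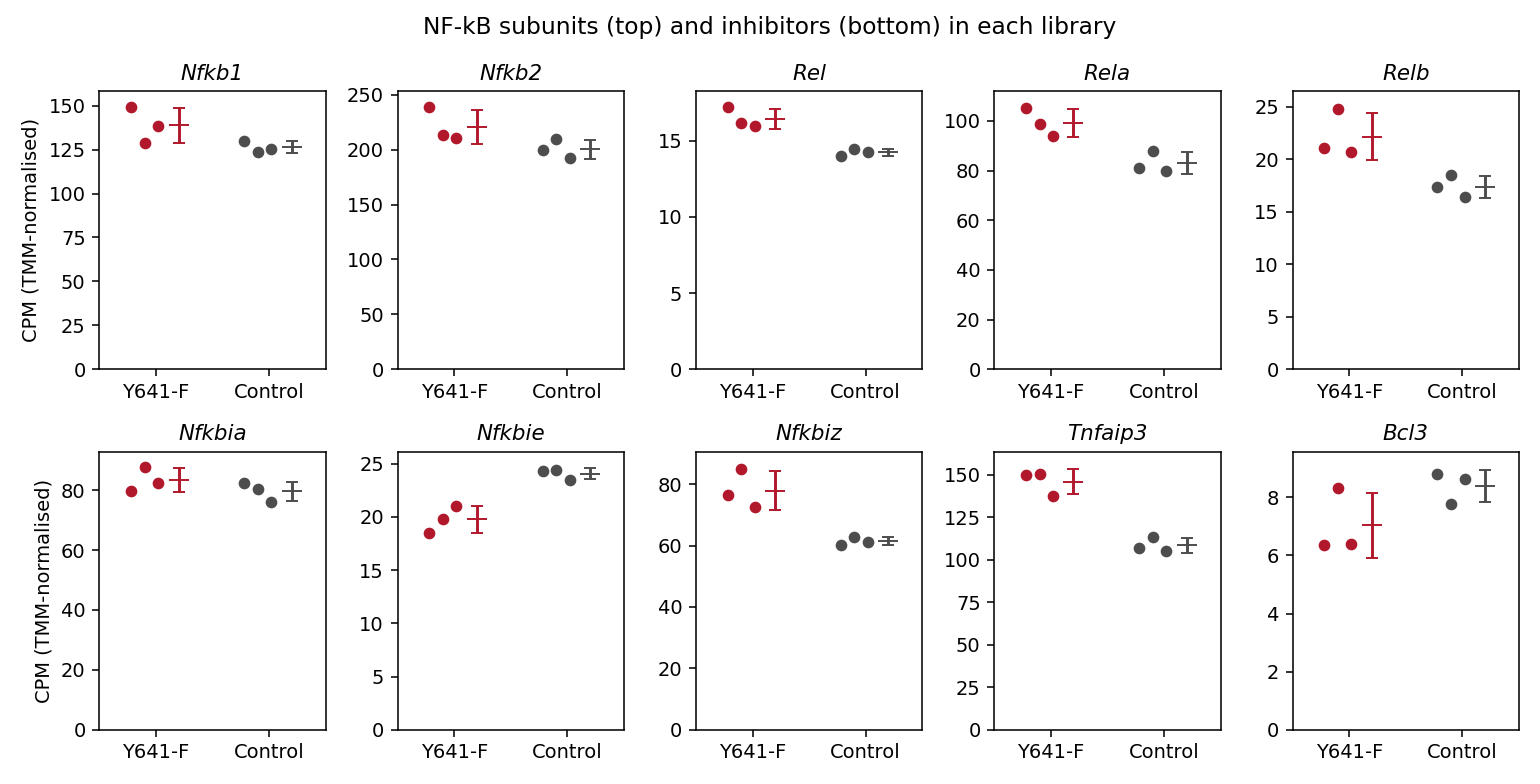
CPM, the counts scaled to library size with TMM factors, of the 10 genes in each library, with subunits above and inhibitors or feedback regulators below, Y641-F in red at the left and Control in grey at the right of each panel. Points are libraries, bars are mean ± SD of 3, and axes start at 0. The groups separate for *Tnfaip3*, *Nfkbiz*, *Nfkbie*, *Rela*, *Relb*, *Rel* and *Nfkb2*, and overlap for *Nfkb1*, *Nfkbia* and *Bcl3*.

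Total counts were 32509268 to 36429035 in Y641-F libraries and 32955434 to 34881914 in Control libraries, and TMM factors ranged from 0.94 to 1.067. The 5 mammary and epithelial markers (*Epcam*, *Krt8*, *Krt18*, *Cdh1* and *Cldn7*) summed to 2500 to 2900 CPM in Y641-F libraries and 2480 to 2520 CPM in Control libraries. The 10 leukocyte markers, 9 of them tested, summed to only 14.5 to 17.9 CPM in Y641-F libraries and 18.4 to 32.6 CPM in Control libraries, and *Cd68*, a macrophage marker, was the 1 that passed the test, as lower. The highest sum was in Control replicate 2, which had 325 counts of *Lyz2* (macrophage lysozyme), 85 of *Ptprc* (CD45) and 75 of *Adgre1* (F4/80), against at most 81, 24 and 22 in any other library. Endothelial markers summed to 4.53 to 5.84 CPM in Y641-F libraries and 5.42 to 5.85 CPM in Control libraries, and fibroblast markers to 21.9 to 36.5 CPM in Y641-F libraries and 35.9 to 48.3 CPM in Control libraries, with *Lum* at 0 in all libraries. Single markers moved more than these sums. *Emcn* (endothelial) had 1 to 2 counts in Y641-F libraries and 24 to 27 in Control libraries, *Col1a1* (fibroblast) 10 to 22 counts in Y641-F libraries and 50 to 87 in Control libraries, and *Cd68* 165 to 197 counts in Y641-F libraries and 334 to 387 in Control libraries. *Cldn7*, of the epithelial list, had 2108 to 2258 counts in Y641-F libraries and 1034 to 1095 in Control libraries. Each of the 4 passed the test. *Emcn* passed the filter on low counts only through the Control libraries and so had to differ, and its call carries no weight. The part of other cell types in the results was not tested.

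*Rela* encodes p65, the main activating subunit of the canonical pathway. It was present at 105, 98.6 and 94.1 CPM in Y641-F libraries, against 81.1, 88.0 and 79.8 CPM in Control libraries. All 3 Y641-F libraries were above all 3 Control libraries. The log2 fold change of *Rela* was 0.26 (95% interval 0.07 to 0.45, edgeR adjusted p = 0.037). The call was lost without Y641-F replicate 1, Control replicate 1, Control replicate 2 or Control replicate 3 (edgeR adjusted p = 0.114, 0.106, 0.0686 and 0.123).
*Relb* encodes RelB, the subunit of the noncanonical branch. Its level was 21.0, 24.8 and 20.7 CPM in Y641-F libraries, against 17.3, 18.5 and 16.4 CPM in Control libraries. The groups did not overlap, and Y641-F replicate 2 was the highest. *Relb* had a log2 fold change of 0.35 (95% interval 0.12 to 0.58, edgeR adjusted p = 0.0266). The call was lost without Y641-F replicate 2, Control replicate 1, Control replicate 2 or Control replicate 3 (edgeR adjusted p = 0.056, 0.0775, 0.0515 and 0.114).
*Nfkb1* and *Nfkb2* encode the precursors p105 and p100, which act as inhibitors until they are processed to the DNA-binding subunits p50 and p52. *Nfkb2* had 239, 214 and 210 CPM in Y641-F libraries, against 200, 210 and 192 CPM in Control libraries. Its groups nearly touched, with 210.2 CPM in Y641-F replicate 3 and 209.6 CPM in Control replicate 2. For *Nfkb2* the log2 fold change was 0.14 (95% interval -0.06 to 0.34, edgeR adjusted p = 0.28). *Nfkb1* had 149, 129 and 138 CPM in Y641-F libraries, against 130, 124 and 125 CPM in Control libraries. Y641-F replicate 2 lay below the highest Control library, and the log2 fold change of *Nfkb1* was 0.14 (95% interval -0.05 to 0.33, edgeR adjusted p = 0.272).
*Rel* encodes c-Rel, best known from lymphocytes. It was at 17.2, 16.2 and 16.0 CPM in Y641-F libraries, against 14.0, 14.4 and 14.3 CPM in Control libraries. The groups did not overlap, yet *Rel* did not pass the test, with a log2 fold change of 0.21 (95% interval -0.01 to 0.43, edgeR adjusted p = 0.142).
Over all 10 genes, libraries of the groups did not overlap for 6 that were higher and 1 that was lower in Y641-F cells, while 21.2% and 23.3% of all genes tested did so. All 5 subunits had a positive log2 fold change, from 0.14 to 0.35, with a median of 0.21, beside a median of -0.01 over all genes tested. These values over all genes tested include genes with few reads and were not matched for read count.

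*Tnfaip3*, which encodes A20, a ubiquitin-editing enzyme that shuts off signaling to IKK, had the largest change of the 10 genes. It was at 150, 150 and 137 CPM in Y641-F libraries, against 107, 113 and 105 CPM in Control libraries. The lowest Y641-F library was well above the highest Control library. The mean was 146 ± 7.25 CPM in Y641-F cells and 108 ± 4.45 CPM in Control cells (SD, n = 3 libraries each). *Tnfaip3* had a log2 fold change of 0.43 (95% interval 0.24 to 0.61, edgeR adjusted p = 0.00221). The call held in all 13 alternatives, with log2 fold changes of 0.39 to 0.47.
*Nfkbiz* encodes IkB-zeta, a nuclear IkB protein that works as a cofactor of p50 at a subset of target genes. It was at 76.3, 84.9 and 72.5 CPM in Y641-F libraries, against 60.2, 62.9 and 61.2 CPM in Control libraries. The groups did not overlap. The log2 fold change of *Nfkbiz* was 0.34 (95% interval 0.15 to 0.53, edgeR adjusted p = 0.00998), and this call also held in all 13 alternatives.
*Nfkbia* encodes IkB-alpha, the inhibitor that canonical signaling degrades and resynthesizes fastest. It had 79.8, 87.8 and 82.4 CPM in Y641-F libraries, against 82.3, 80.5 and 76.1 CPM in Control libraries. The ranges overlapped. *Nfkbia* had a log2 fold change of 0.07 (95% interval -0.11 to 0.25, edgeR adjusted p = 0.599), so a fold above 1.19 or below 0.924 lay outside the interval.
*Nfkbie* encodes IkB-epsilon, a further cytoplasmic inhibitor that is resynthesized later than IkB-alpha. It was the 1 gene of the 10 that fell, to 18.5, 19.8 and 21.0 CPM in Y641-F libraries, against 24.3, 24.4 and 23.5 CPM in Control libraries. No Y641-F library reached the lowest Control library. The log2 fold change of *Nfkbie* was -0.28 (95% interval -0.49 to -0.08, edgeR adjusted p = 0.0398). Its call was lost with the DESeq2 Wald test (adjusted p = 0.0623), with no filter on low counts (edgeR adjusted p = 0.0648) and without Y641-F replicate 1, Control replicate 1, Control replicate 2 or Control replicate 3 (edgeR adjusted p = 0.123, 0.0895, 0.132 and 0.0672). The leukocyte markers were also lower in Y641-F libraries in sum, as given above, but *Cd68*, the most abundant of them, alone passed the test. The sum was 32.6 CPM in Control replicate 2, against 19.5 and 18.4 CPM in Control replicates 1 and 3. *Ptprc* had 13 to 18 counts in Y641-F libraries and 22 to 85 in Control libraries. *Csf1r* went the other way in part, with 244, 266 and 242 counts in Y641-F libraries and 193, 273 and 155 in Control libraries. Every Y641-F library was above Control replicates 1 and 3 and below Control replicate 2. The part of leukocytes in the difference of *Nfkbie* was not tested.
*Bcl3* encodes a nuclear IkB protein that binds p50 and p52 dimers, and it was the least abundant of the 10 genes. It had 6.37, 8.34 and 6.40 CPM in Y641-F libraries, against 8.81, 7.77 and 8.63 CPM in Control libraries. Y641-F replicate 2 lay within the Control range. *Bcl3* had a log2 fold change of -0.26 (95% interval -0.58 to 0.07, edgeR adjusted p = 0.223). Without Y641-F replicate 2 it was -0.40 (edgeR adjusted p = 0.0377).

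**Figure D2:**
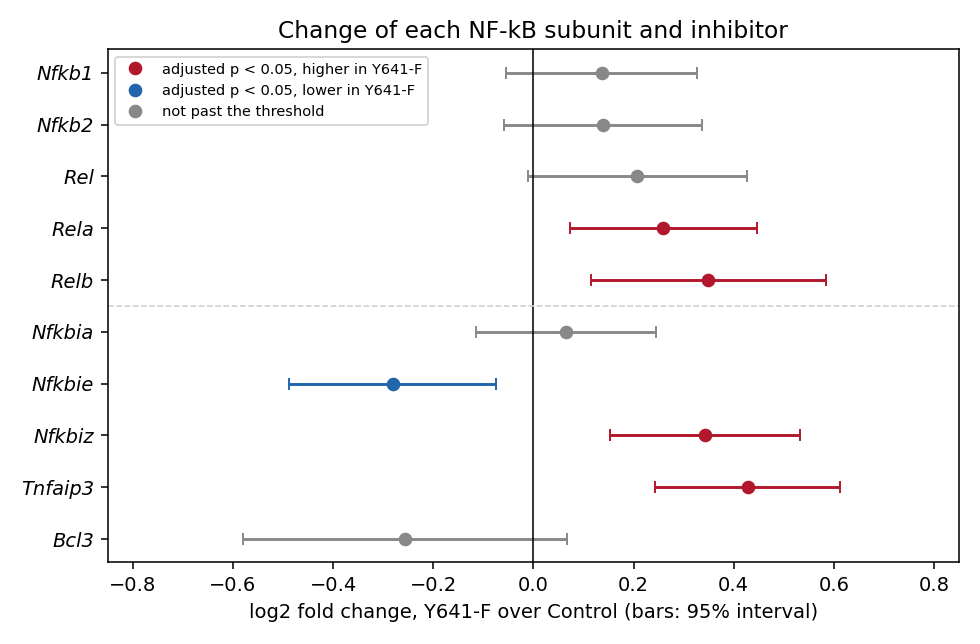
Log2 fold change of each gene, Y641-F over Control, with its 95% interval from edgeR. Red and blue points passed an adjusted p under 0.05 as higher and lower in Y641-F cells, and grey points did not. The changes run from -0.28 for *Nfkbie* to 0.43 for *Tnfaip3*.

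The feedback regulators did not all move one way. A ratio of counts within a library does not depend on how libraries are scaled. The counts of *Tnfaip3* per count of *Nfkbie* were 8.09, 7.59 and 6.53 in Y641-F libraries, against 4.40, 4.65 and 4.47 in Control libraries. The counts of *Tnfaip3* per count of *Nfkbia* were 1.88, 1.71 and 1.67 in Y641-F libraries, against 1.30, 1.41 and 1.38 in Control libraries. In both ratios every Y641-F library was above every Control library. These pairs were chosen after the values were seen and were not tested.

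Levels of different genes were compared as CPM per kb of exon, with exon lengths merged over all transcripts in GENCODE vM39. The authors' annotation and the transcripts used by these cells may differ from these lengths, so the order is approximate. *Nfkbia* was the most abundant, at 43.0 ± 2.10 CPM per kb in Y641-F cells and 41.1 ± 1.65 CPM per kb in Control cells (SD, n = 3 libraries each). *Rela* and *Nfkb2* followed, at 30.3 and 27.9 CPM per kb in Y641-F cells and 25.3 and 25.4 CPM per kb in Control cells, and their libraries overlapped in each group. *Tnfaip3* and *Nfkbiz* came next, at 15.01 and 13.9 CPM per kb in Y641-F cells and 11.2 and 10.9 CPM per kb in Control cells, again with overlap in each group. *Nfkb1* was at 10.8 CPM per kb in Y641-F cells and 9.82 in Control cells. At the lower end, *Nfkbie* was at 4.72 CPM per kb in Y641-F cells and 5.74 in Control cells, and *Relb* at 4.36 in Y641-F cells and 3.42 in Control cells. The libraries of *Nfkbie* and *Relb* overlapped in Y641-F cells but were apart in Control cells. *Rel* and *Bcl3* were the lowest, at 2.12 and 1.34 CPM per kb in Y641-F cells and 1.83 and 1.603 in Control cells.
Of the summed level per kb of the 5 subunits, *Rela* made up 40.1% in Y641-F cells and 38.5% in Control cells, and *Nfkb2* 37.0% in Y641-F cells and 38.6% in Control cells. *Nfkb1* took 14.3% in Y641-F cells and 14.9% in Control cells, *Relb* 5.8% in Y641-F cells and 5.2% in Control cells, and *Rel* 2.8% in both. The log2 ratio of *Relb* and *Nfkb2* to *Rela* and *Nfkb1*, a measure of noncanonical against canonical subunits, was -0.35, -0.33 and -0.36 in Y641-F libraries, against -0.28, -0.28 and -0.31 in Control libraries. All Y641-F libraries were below all Control libraries, by 0.06 on average (exact permutation test, two-sided, p = 0.1, the smallest that 3 against 3 libraries can give). *Nfkb2* makes up most of the numerator of this ratio. The log2 ratio of the 5 inhibitors or feedback regulators to the 5 subunits averaged 0.05 ± 0.12 in Y641-F cells and 0.10 ± 0.03 in Control cells (SD, n = 3 libraries each, exact permutation test, two-sided, p = 0.7). Without division by exon length the difference of this ratio, Y641-F minus Control, was 0.072 in place of -0.055, and that of the noncanonical ratio was -0.029. The ratio is not one of inhibition. *Nfkbiz* and *Bcl3* encode nuclear IkB proteins, and the precursors from *Nfkb1* and *Nfkb2* also act as inhibitors.

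**Figure D3:**
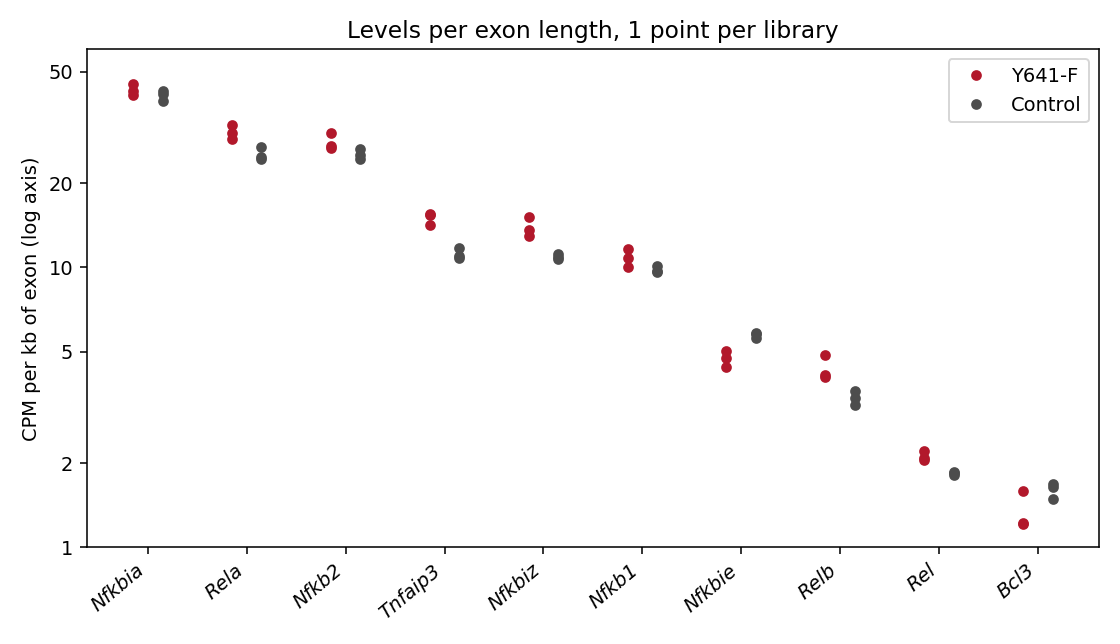
CPM per kb of exon of the 10 genes on a log axis, 1 point per library, with Y641-F in red to the left of Control in grey and genes ordered by their mean in Y641-F cells. Levels run from *Nfkbia* at 43.0 to *Bcl3* at 1.34 CPM per kb in Y641-F cells.

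The other genes of the pathway were taken from lists ordered by role, 94 genes in all, with 89 above the limit on low counts. These lists were chosen with earlier results of these data known, so the shares called describe the lists and test nothing. In Y641-F cells, 29 were called higher, 20 lower and 40 neither (55.1% called, beside 31.6% of all genes tested and 47.2% of those with as many reads as *Bcl3* or more), with a median log2 fold change of 0.03. Of the 49 calls, 36 held in all alternatives that gave an adjusted p.
Among the remaining IkB family genes, *Nfkbib*, which encodes the inhibitor IkB-beta, rose. It had 814, 802 and 853 counts in Y641-F libraries, against 564, 551 and 513 in Control libraries. All Y641-F counts were higher, and the log2 fold change of *Nfkbib* was 0.70 (95% interval 0.50 to 0.90, edgeR adjusted p = 0.000146), larger than that of any of the 10 genes above. *Nfkbid*, for the nuclear protein IkB-NS, was at 0.26 (edgeR adjusted p = 0.299).
Of 13 genes for the IKK complex and its upstream kinases, 2 rose, 4 fell and 7 were not called. This is 46.2% called, beside the same 31.6% and 47.2%, and the median log2 fold change was -0.14. *Chuk* (IKK-alpha) rose, with a log2 fold change of 0.50 (edgeR adjusted p = 0.000523), while *Ikbkb* (IKK-beta) was at -0.07 (edgeR adjusted p = 0.545) and *Ikbkg* (NEMO, the regulatory subunit and most abundant by CPM of the list) fell by 0.24 (edgeR adjusted p = 0.0494). *Map3k14*, which encodes NIK, the kinase of the noncanonical branch, fell by 0.56 on the log2 scale (edgeR adjusted p = 0.00108). Its counts were 522, 503 and 508 in Y641-F libraries, against 860, 804 and 752 in Control libraries. The kinases *Ripk1* (0.33) and *Ikbke* (-0.51) and the adaptor *Tab2* (-0.33) also passed. Single libraries ended 4 of these calls. The call of *Ikbkg* was lost without any library but Control replicate 3 (edgeR adjusted p up to 0.188, without Control replicate 2) and with DESeq2 size factors or no filter on low counts (0.0577 and 0.064). That of *Ripk1* was lost without any library but Y641-F replicate 2 (up to 0.148, without Y641-F replicate 1, and 0.0888 without Control replicate 2), that of *Ikbke* without Y641-F replicate 1, Y641-F replicate 3 or Control replicate 1 (0.109, 0.099 and 0.101), and that of *Tab2* without Y641-F replicate 3 or Control replicate 2 (0.072 and 0.101).

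Of 16 receptor adaptors, 4 rose, 5 fell and 7 were not called. This is 56.2% called, beside 31.6% of all genes tested and 47.2% of those with as many reads as *Bcl3* or more. The median log2 fold change was -0.19. *Birc3* (cIAP2, itself a common NF-kB target) rose, with a log2 fold change of 0.70 (edgeR adjusted p = 0.00038), and *Birc2* (cIAP1) fell, with -0.46 (edgeR adjusted p = 0.00283). *Birc3* had 612, 659 and 757 counts in Y641-F libraries, against 483, 465 and 385 in Control libraries. *Myd88*, the adaptor of interleukin-1 and Toll-like receptors, *Traf1* and *Traf3* rose, with log2 fold changes of 0.47, 0.40 and 0.33. *Irak2*, *Tradd*, *Card10* and *Traf6* fell, with -0.50, -0.49, -0.46 and -0.33. *Card10* (CARMA3) was the most abundant by CPM. *Traf3* lost its call without Y641-F replicate 1 or Control replicate 2 (edgeR adjusted p = 0.0537 and 0.057), and *Traf6* without any library but Y641-F replicate 1 (0.0753 to 0.108).
Of 11 genes for linear ubiquitin chains, deubiquitinases and partners of A20, 2 rose, 2 fell and 7 were not called. This is 36.4% called, beside the same 31.6% and 47.2%, and the median was -0.01. *Rnf31* (HOIP, which builds linear chains) fell by 0.65 on the log2 scale (edgeR adjusted p = 0.00105) and *Otulin*, which removes them, rose by 0.41 (edgeR adjusted p = 0.00372). *Cyld*, a tumor suppressor deubiquitinase, fell by 0.46 (edgeR adjusted p = 0.00342). *Rnf11*, a partner of A20, rose by 0.34 (edgeR adjusted p = 0.0224, lost without Y641-F replicate 3, Control replicate 1 or Control replicate 2 at 0.0856, 0.0973 and 0.093). *Tnip1*, the A20-binding protein ABIN-1, was at 0.03 (edgeR adjusted p = 0.828).

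Of 12 receptors, 4 rose, 4 fell and 4 were not called. This is 66.7% called, beside 31.6% of all genes tested and 47.2% of those with as many reads as *Bcl3* or more. The median log2 fold change was 0.12. *Il1r1*, the signaling receptor of interleukin-1, and *Tnfrsf1b* (TNFR2) fell, with log2 fold changes of -1.02 (edgeR adjusted p = 9.48e-05) and -0.96 (edgeR adjusted p = 1.74e-05). *Il1r1* had 259, 216 and 241 counts in Y641-F libraries, against 504, 562 and 494 in Control libraries. The groups were far apart. *Tnfrsf12a* (Fn14, the receptor of TWEAK) and *Cd40* rose, with log2 fold changes of 0.75 (edgeR adjusted p = 0.000117) and 0.71 (edgeR adjusted p = 0.00868). *Tnfrsf12a* was the most abundant by CPM of the receptors, at 370 CPM in Y641-F cells and 219 CPM in Control cells. *Tlr3* (0.37) and *Il17ra* (0.29) rose, and *Tlr4* (-0.33) and *Tnfrsf1a* (TNFR1, -0.27) fell. *Tlr4* lost its call without any library but Y641-F replicate 3 (edgeR adjusted p up to 0.155, without Control replicate 2) and with the DESeq2 Wald test or DESeq2 size factors in edgeR (adjusted p = 0.05 and 0.0534). *Tnfrsf1a* lost it without any library but Y641-F replicate 2 (edgeR adjusted p up to 0.125, without Control replicate 1, and 0.0628 without Control replicate 2). *Il17ra* lost it without any but Y641-F replicate 3 and Control replicate 1 (up to 0.138, without Control replicate 3, and 0.128 without Control replicate 2) and with upper-quartile factors (0.0573).
Of 11 ligands, 7 were tested, and *Il1a* (interleukin-1 alpha) was the 1 that passed (14.3%, beside 31.6% of all genes tested). It had 4961, 5095 and 5678 counts in Y641-F libraries, against 2031, 2019 and 1893 in Control libraries, a log2 fold change of 1.501 (95% interval 1.32 to 1.68, edgeR adjusted p = 3.02e-07). *Tnf* had only 18, 22 and 22 counts in Y641-F libraries and 10, 23 and 9 in Control libraries, and *Il1b* 33 to 45 counts in Y641-F libraries and 60 to 74 in Control libraries. Neither passed the test (edgeR adjusted p = 0.331 and 0.0804).

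Of 29 classical NF-kB target genes outside the 10, 28 were tested, of which 15 rose, 5 fell and 8 were not called (71.4% called, beside the same 31.6% and 47.2%), and the median log2 fold change was 0.46. The chemokine genes *Cxcl3*, *Cxcl2* and *Cxcl5* and the cyclooxygenase gene *Ptgs2* had log2 fold changes of 3.08, 2.38, 1.56 and 2.55, each with an edgeR adjusted p of at most 9.84e-05. *Cxcl5* was the most abundant by CPM, at 1227 ± 31.6 CPM in Y641-F cells and 416 ± 19.2 CPM in Control cells (SD, n = 3 libraries each). Other targets that rose include *Ier3*, *Sod2* and *Gadd45b*, known from responses to stress and cell death, with log2 fold changes of 0.58 for *Ier3*, 0.46 for *Sod2* (manganese superoxide dismutase) and 0.25 for *Gadd45b*.
The lower calls were *Nos2* (inducible nitric oxide synthase), *Irf1* (an interferon-regulatory transcription factor), *Lcn2* (lipocalin 2), *Bcl2l1* (Bcl-xL) and *Cd83*, which is not like the other 4 because it passed the filter on low counts only through the Control libraries and so had to differ. *Nos2* had 985, 904 and 940 counts in Y641-F libraries, against 2616, 2582 and 1962 in Control libraries, a log2 fold change of -1.23 (edgeR adjusted p = 5.94e-06). *Irf1*, *Lcn2* and *Bcl2l1* had log2 fold changes of -0.74, -0.59 and -0.56, each with an edgeR adjusted p of at most 0.000546. *Cd83* had 0, 0 and 1 counts in Y641-F libraries and 4, 6 and 6 in Control libraries, and its call was lost with no filter on low counts (edgeR adjusted p = 0.0878) and without Y641-F replicate 1 (0.0811) or Y641-F replicate 2 (0.0614). *Gadd45b* lost its call without any library but Y641-F replicate 2 (edgeR adjusted p up to 0.134, without Control replicate 1, and 0.122 without Control replicate 2) and with no filter on low counts (0.068), and *Saa3* (serum amyloid A3, log2 fold change 1.58) without Y641-F replicate 3 or Control replicate 2 (0.0627 and 0.0657). Genes used as markers of NF-kB activity on endothelium and epithelium, *Vcam1* and *Icam1*, were at 0.12 and 0.11 (edgeR adjusted p = 0.345 and 0.567).

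**Figure D4:**
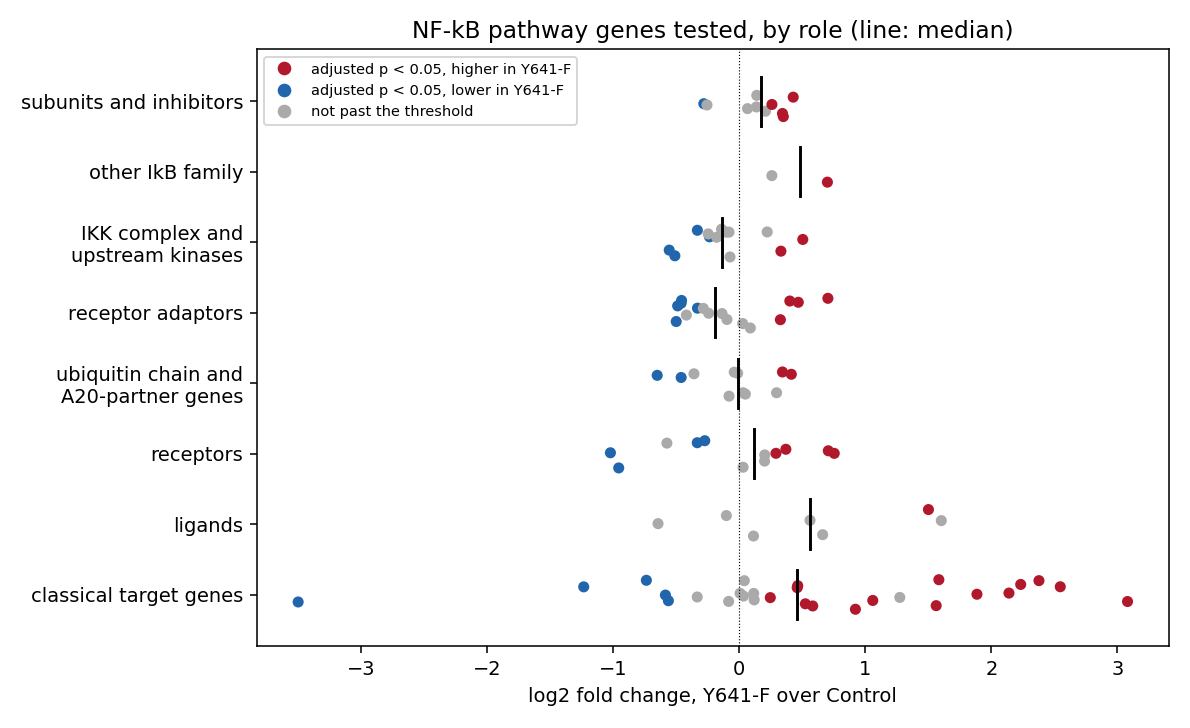
Log2 fold change, Y641-F over Control, of the 10 genes and of the 89 other pathway genes tested, by role. Each point is a gene, black lines are medians, and red, blue and grey mark higher, lower and not past an adjusted p under 0.05. The 10 genes lie between -0.28 and 0.43, and the classical targets between -1.23 (*Nos2*) and 3.08 (*Cxcl3*), apart from *Cd83* at -3.50, a gene at the limit of the filter.

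By position, *Rela* and *Nfkb2* lie on chromosome 19 of GRCm39, at 5687493 to 5698161 and 46292759 to 46303812 on the plus strand, and *Relb* and *Bcl3* on chromosome 7, at 19339017 to 19363425 and 19541553 to 19557570 on the minus strand. *Tnfaip3* spans 18874201 to 18891405 of chromosome 10, *Nfkbia* 55535332 to 55539432 of chromosome 12, *Nfkbie* 45866585 to 45874661 of chromosome 17 and *Nfkbiz* 55631738 to 55659262 of chromosome 16. Exons of *Nfkb1*, *Nfkb2*, *Rela*, *Nfkbia*, *Tnfaip3*, *Bcl3* and *Nfkbib* lie across exons of opposite-strand genes in GENCODE vM39, and the strand setting of the counting is not given in the sources used here. Reads of such partners cannot be told apart from theirs. *Rel*, *Relb*, *Nfkbie* and *Nfkbiz* had no such overlap. Other pathway genes overlap as well, such as *Rnf31* with *Psme2* on the opposite strand and *Irf9* on the same strand. *Map3k14* overlaps *Gm34823* on the opposite strand and *1700028N14Rik* on the same strand.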

How the data were processed

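RNA-seq of 3 Y641-F and 3 Control libraries of 4T-1 cells was used. Per the submitters' processing notes, the deposited raw read counts per gene come from featureCounts 2.0.1 after alignment to GRCm39 with STAR version 2. Reads had been trimmed by fastp 0.20.1. For the annotation and strand setting, nothing is given in the sources used here. Whether batches came from separate transductions is not stated, so p-values measure spread between batches.

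A minimum of 0.1 CPM in 3 or more libraries kept 21043 of 40205 genes. Counts were scaled by TMM and tested over all genes with the edgeR 4.0.16 quasi-likelihood test and Benjamini-Hochberg adjustment in R 4.3.3. Limma 3.58.1 and DESeq2 1.42.0 served for alternatives. Replicates of a group differed by more than sampling noise (chi-square per degree of freedom 12.1 to 33.2). Exon lengths and positions are from GENCODE vM39.

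The members and lists were chosen with earlier results of these data known. Named genes are all 10 members and, of each other list, up to 4 called genes with the largest changes and the most abundant gene. *Nfkbid*, *Ikbkb*, *Ripk1*, *Birc2*, *Traf1*, *Traf3*, *Traf6*, *Tnip1*, *Tlr3*, *Il17ra*, *Tlr4*, *Tnfrsf1a*, *Tnf*, *Il1b*, *Ier3*, *Sod2*, *Gadd45b*, *Nos2*, *Irf1*, *Lcn2*, *Bcl2l1*, *Saa3*, *Vcam1* and *Icam1* fall outside this choice and were picked after seeing their values. Alternatives were other size factors, filters and tests, a block on replicate number, and leaving out single libraries.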

Additional observations from a re-analysis of the deposited data

How the results depend on the processing

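Under the 13 alternatives all 10 genes kept the sign of their log2 fold change. The calls of *Tnfaip3* and *Nfkbiz* held in all of them. The number of the 10 genes called higher was 4 with edgeR and 3 under a replicate block, and it ranged from 2 to 4 when single libraries were left out. The number called lower was 1 with edgeR, 0 with no filter on low counts, 0 with the DESeq2 Wald test, 0 with that block and 0 to 2 when single libraries were left out. The calls that were lost are those of *Rela*, *Relb* and *Nfkbie*, and the call gained, without Y641-F replicate 2, is that of *Bcl3*. The block moved *Rela* to an adjusted p of 0.05 and *Nfkbie* to 0.0616, and of the other pathway genes it ended the calls of *Ikbkg*, *Ripk1*, *Gadd45b*, *Tlr4* and *Cd83* (0.0758, 0.057, 0.0648, 0.0509 and 0.0651). The labels do not say whether same-numbered libraries belong together. Their deviations correlated at -0.071, -0.004 and 0.102, and those of differently numbered libraries at -0.099 to 0.103. With 3 libraries per group these values cannot settle whether the libraries are paired. With the block all genes gave 3149 higher and 3244 lower calls, against 3277 and 3374. The 29 higher and 20 lower calls among other pathway genes ranged from 23 to 29 and from 14 to 21 over all alternatives. Without division by exon length, the difference in the log2 ratio of inhibitors or feedback regulators to subunits was 0.072 in place of -0.055, and that of noncanonical to canonical subunits was -0.029 in place of -0.06. Division by exon length changes only the weight of each gene in the sums. It lowers that of long genes such as *Tnfaip3* (9.711 kb) against short genes such as *Nfkbia* (1.937 kb). With single libraries left out these differences ranged from -0.11 to 0.01 and from -0.07 to -0.05. For *Bcl3*, the gene with the fewest reads, the 95% interval of the fold ran from 0.669 to 1.048.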
